A study of Mus musculus with 6 samples.

Results

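The Mmp, Adam, Adamts and Timp genes encode the matrix metalloproteases, 2 related protease families and their inhibitors. Their RNA was compared between epidermis of newborn mice labelled Paxbp1 knockout and wild type. Members were chosen by gene name and gene type: a protein-coding row whose symbol is Mmp, Adam, Adamts or Timp followed by a number and at most 1 letter. This gave 78 of the 54532 genes of the count table, with 22 Mmp, 33 Adam, 19 Adamts and 4 Timp genes. No measured value enters that pattern, but the families were picked out with results of this same comparison in view. Folds and adjusted p-values are therefore given as a description of each gene, and no family count is read as a result about its family.

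Mmp proteins are zinc-dependent endopeptidases made as inactive proenzymes, secreted or held at the cell surface, that cut collagens, laminins and other matrix proteins. Adam proteins are membrane-anchored and release the outer parts of growth factors, cytokines and adhesion molecules from the cell surface, while Adamts proteins are secreted, carry thrombospondin repeats and cut proteoglycans and procollagens. Timp proteins bind the active site of these enzymes and block it, and in skin the 4 families are known for their roles in basement membrane turnover, wound repair and inflammation.

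The wild type group and the Paxbp1 knockout group each had 3 libraries, numbered 1 to 3. Per the labels' protocols, fat and dermis were stripped from trunk skin, the tissue was held in Dispase II at low temperature overnight, and total RNA was taken from the peeled epidermis. Paxbp1 encodes a protein that binds Pax transcription factors. The strain, the deleted stretch of Paxbp1, any Cre driver, and whether a library came from 1 animal or a pool are not given in any source used here. The p-values thus reflect how these libraries vary, which may be technical.

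The libraries held 16315317 to 17816327 counts each. Paxbp1 itself had 2007, 1159 and 1467 counts in the wild type libraries and 2370, 1127 and 1125 in the libraries labelled knockout, so its gene total does not tell the groups apart, and a whole-gene count cannot check for a deleted part. "Knockout" below means the libraries labelled so. All 17 keratinocyte markers had counts in both groups, and all 17 were lower in the knockout, with summed levels of 90169 to 145931 CPM in the wild type against 5490 to 13619 CPM. CPM are counts scaled to a common library size, itself adjusted by TMM, edgeR's trimmed-mean scaling. Marker counts stand beside 28.7% of all genes tested called higher and 25.1% called lower. Markers of other cells moved with the groups. Of the macrophage markers, 14 of 14 were higher, with sums of 191 to 213 CPM against 11030 to 20265 CPM. Of 12 neutrophil markers, 8 could be tested and 8 were higher, with sums of 2.18 to 3.00 CPM against 3435 to 8471 CPM, and Ly6g and Retnlg had no count in the wild type. All those tested but Csf3r had wild type means of at most 0.197 CPM and passed the count filter through the knockout. For these, and for other markers with few wild type counts, the difference is partly built into being tested. Of 14 fibroblast markers, 13 could be tested, 11 were higher and 2 lower, with sums of 993 to 1036 CPM against 3814 to 9609 CPM, and Mfap5 had no wild type count. The 2 lower were Postn, with means of 544 against 72.4 CPM, and Fbln1, with 200 against 47.0 CPM. They weigh heavily in the wild type sum. Of 11 endothelial markers, 8 could be tested and 6 were higher, with sums of 5.20 to 9.28 CPM against 204 to 368 CPM, and Emcn had no wild type count. Melanocyte markers (2 higher and 3 lower of 7 tested), muscle and pericyte markers (5 and 1 of 7) and T cell and Langerhans cell markers (2 and 3 of 5, with no wild type count of Cd207) were mixed. These shifts run beside every result below, and their part in each was not tested. In bulk tissue, fewer cells of a type and less RNA per cell cannot be told apart. More genes had a count in the libraries numbered 1 (24236 and 24380) than in the other 4 (22059 to 22556). With both of those left out, 36 of the 37 members called below kept their call.

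Both groups made RNA of all 4 families, but different members led. Lengths differ between genes, so levels of different genes are compared only in FPKM, in which fragments are divided by the length of the gene and the size of the library. In the wild type the highest mean levels were Mmp14 at 24.1 FPKM, Adam10 at 21.5, Adamts1 at 16.6, Adamts14 at 16.0, Adam15 at 10.7 and Adam17 at 10.1 FPKM. In the knockout they were Adam8 at 251 FPKM, Mmp19 at 228, Timp2 at 205, Mmp8 at 123, Mmp13 at 101, Adam9 at 92.6 and Mmp14 at 92.1 FPKM. Of these 7, only Mmp14 was also among the 6 named for the wild type.

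Summed over its members, the Mmp family stood at 42.1, 38.6 and 38.9 FPKM in wild type replicates 1 to 3 and at 441, 688 and 879 FPKM in knockout replicates 1 to 3. The Adam sum was 53.6, 56.7 and 48.1 FPKM against 391, 458 and 635 FPKM. The Timp sum was 8.89, 5.48 and 7.84 FPKM against 202, 332 and 349 FPKM. The groups lay well apart for these 3 families. The Adamts sum was 69.0, 37.6 and 47.3 FPKM against 48.0, 41.1 and 49.4 FPKM, and there the groups overlapped. Adamts genes made up 33.9% of the summed mean FPKM of the 4 families in the wild type and 3.07% in the knockout, and Timp genes 4.89% and 19.6%.

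Of the 78 members, 48 had enough counts to be tested. Among these, edgeR's quasi-likelihood test, adjusted over all 16471 genes tested, called 30 higher and 7 lower in the knockout at an adjusted p under 0.05, and 11 were not called. Over all genes tested, 28.7% were called higher, 25.1% lower and 53.8% in either direction. By family, 13 of 17 tested Mmp genes were higher and 1 lower, 10 of 13 Adam genes were higher and 1 lower, 5 of 15 Adamts genes were higher and 5 lower, and 2 of 3 Timp genes were higher. The median log2 fold change, knockout minus wild type, was 4.48 in Mmp, 2.95 in Adam, 0.06 in Adamts and 5.66 in Timp genes, beside -0.03 over all genes tested. The 3 knockout libraries all lay above the 3 wild type libraries for 32 of the 48, all below for 7, and overlapped for 9, where 62.3% of all genes tested did not overlap. Of the 48, 11 had no wild type library above the limit of the count filter and 1, Adamts19, had no knockout library above it. The filter asks for 3 libraries above the limit. Mmp10, Mmp12, Mmp16, Mmp17, Mmp23, Adam4, Adam33, Adamts5, Adamts7 and Adamts15 also met it in the knockout but not in the wild type by itself. The reverse holds for Adam1a, Adam11, Adamts17 and Adamts18. For all these members the difference is partly built into being tested. Counts by kind of protein below stand beside the same shares over all genes tested, and none is read as a result about its kind.

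**Figure D1:**
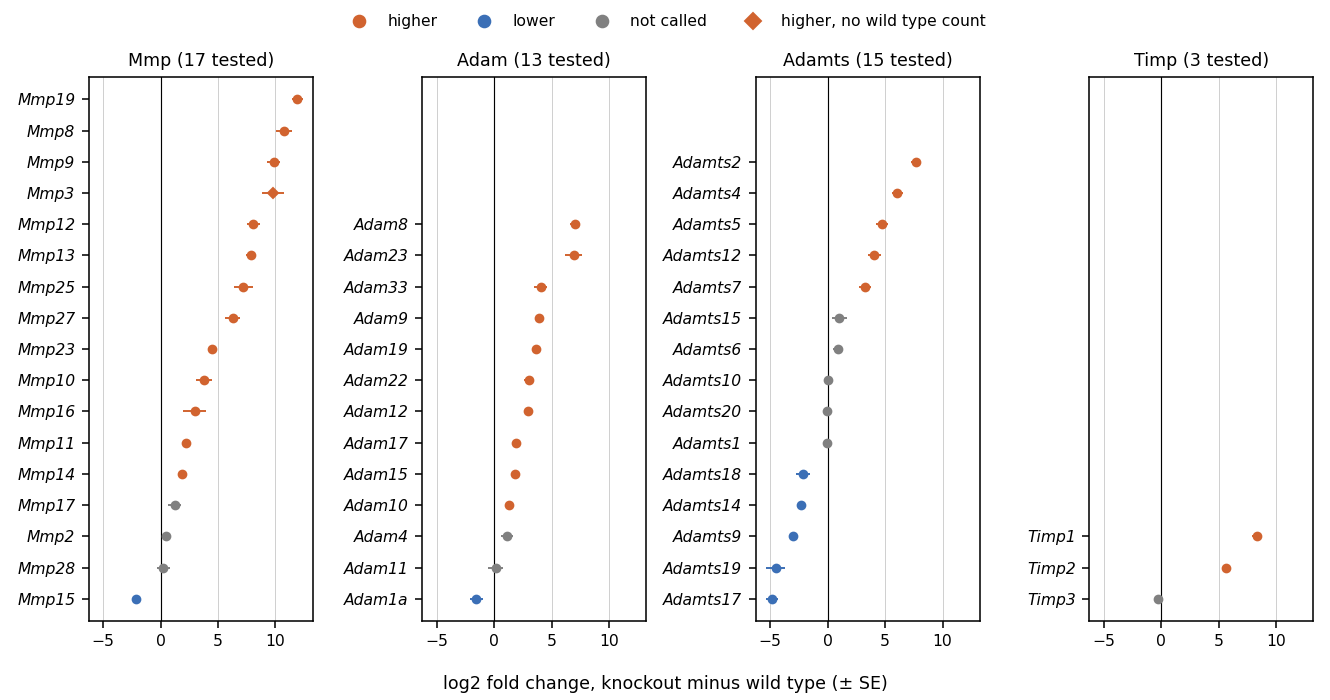
Log2 fold change, knockout minus wild type, with its SE, for the 48 tested members by family. The diamond marks Mmp3, which had no wild type count, so its fitted value is no bound. Most Mmp, Adam and Timp points lie to the right of 0, up to 11.90 for Mmp19, while Adamts points run from -4.83 for Adamts17 to 7.69 for Adamts2.

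The other 30 members were not tested. They comprise 10 with no count in any library, all Adam genes, and 20 with between 1 and 60 counts over the 6 libraries. A count of 0 in a library shows only that the gene was not detectable at this depth.

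Of the 4 inhibitors, 2 were higher, 1 was not called and 1 was not tested. Timp1 (ENSMUSG00000001131, chromosome X, 20870166 to 20874735 in mm10, plus strand), a secreted inhibitor known to be induced in inflamed tissue, stood at 0.109, 0.367 and 0.212 CPM in the wild type libraries and at 50.3, 101 and 80.3 CPM in the knockout. It was near the detection limit in every wild type library and the groups were far apart, at 0.229 ± 0.130 against 77.2 ± 25.5 CPM (SD, n = 3), a log2 fold change of 8.38 ± 0.44 (SE; edgeR adjusted p = 2.05e-07). Timp2 (ENSMUSG00000017466, chromosome 11, 118301069 to 118355740, minus strand), which also takes part in the activation of pro-Mmp2 by Mmp14, went from 21.3, 11.4 and 14.9 CPM to 568, 856 and 986 CPM. Here the wild type libraries already held a clear level, and the log2 fold change was 5.66 ± 0.38 (edgeR adjusted p = 6.79e-07). Timp3, the inhibitor that binds the matrix and blocks Adam17, was at 30.0, 17.7 and 32.1 CPM against 14.7, 18.8 and 31.2 CPM. Its groups overlapped, with a log2 fold change of -0.31 ± 0.32 (edgeR adjusted p = 0.445), and 21.3% of its exon bases overlap Syn3 on the opposite strand, whose own counts were low in both groups (58 and 31 in all). Timp4 had 1, 2 and 1 counts against 7, 1 and 4 and was not tested. In FPKM the order in the wild type was Timp2 at 3.96 ± 1.19 and Timp3 at 3.18 ± 0.907, which do not differ beyond their spread, then Timp1 at 0.253 ± 0.146. In the knockout it was Timp2 at 205 ± 55.8, Timp1 at 86.4 ± 28.4 and Timp3 at 2.63 ± 1.08 FPKM.

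Of the collagenases, which cut the triple helix of fibrillar collagens, both that could be tested were higher. Mmp8 met the count filter only through the knockout. Mmp8, the collagenase stored in neutrophil granules, was at 0.218, 0.0611 and 0.212 CPM in the wild type against 136, 243 and 516 CPM in the knockout. Knockout replicate 3 was the highest and replicate 1 the lowest of the group, and the log2 fold change of 10.74 ± 0.68 (edgeR adjusted p = 4.92e-07) was 10.09 without replicate 3. The neutrophil marker sum was also lowest in replicate 1, and highest in replicate 2, and its part in the level of Mmp8 was not tested. Mmp13, the main interstitial collagenase of mouse skin, was at 1.09, 0.795 and 1.49 CPM against 157, 389 and 266 CPM, with knockout replicate 2 the highest and a log2 fold change of 7.89 ± 0.45 (edgeR adjusted p = 2.71e-07). Mmp1b had no count in the wild type libraries and 39, 8 and 10 in the knockout, too few to pass the filter. Set against 3 counts for the whole group, the floor used here, it was at least 20.7-fold higher, a bound that covers counting error only. The span of Mmp1b, from 7368239, overlaps that of Mmp12, which ends at 7369499 on the opposite strand. Mmp12 had 38 wild type and 9194 knockout counts, and whether its reads add to those of Mmp1b was not tested.

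Of the 2 gelatinases, which cut denatured collagen and type IV collagen, 1 was higher and 1 was not called. Mmp9, made by neutrophils, macrophages and wounded keratinocytes, was at 0.0546, 0.306 and 0.265 CPM in wild type libraries and at 111, 186 and 286 CPM in the knockout. Its groups were far apart, with a log2 fold change of 9.83 ± 0.55 (edgeR adjusted p = 2.54e-07). Mmp2, typically a product of fibroblasts, was at 37.8, 31.2 and 29.8 CPM against 27.4, 54.0 and 59.2 CPM. Knockout replicate 1 lay below all wild type libraries and the other 2 above them, and the log2 fold change of 0.51 ± 0.28 was not called (edgeR adjusted p = 0.153). Without knockout replicate 1 it was 0.79 and called (edgeR adjusted p = 0.00615). In wild type FPKM, Mmp2 at 9.51 ± 1.09 was far above Mmp9 at 0.0579 ± 0.0378, and in the knockout it stood at 13.8 ± 5.09 against 54.8 ± 25.2.

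All 3 stromelysins, of which Mmp3 and Mmp10 cut a broad range of matrix proteins and activate other Mmp proenzymes, were higher. Mmp3 and Mmp10 met the count filter in the knockout but not in the wild type by itself. Mmp3 had no count in the 3 wild type libraries and 113, 150 and 57 counts in the knockout, at least 116-fold higher against the same floor. Mmp10, which keratinocytes make at wound edges, was at 0.0546, 1.04 and 0.478 CPM against 4.42, 9.74 and 7.49 CPM, with a log2 fold change of 3.79, or 4.71 without wild type replicate 2. Mmp11, which leaves the cell already active after furin cleavage, was at 5.78, 7.52 and 6.21 CPM against 18.9, 27.2 and 45.5 CPM, a log2 fold change of 2.23 ± 0.33 (edgeR adjusted p = 1.82e-04). Of its exon bases, 5.58% overlap Chchd10 on the opposite strand, which had 168 wild type and 1170 knockout counts. Mmp12, the macrophage elastase, was at 0.164, 0.856 and 1.11 CPM in the wild type against 114, 274 and 185 CPM in the knockout. The log2 fold change was 8.06 ± 0.57 (edgeR adjusted p = 9.02e-07). Mmp7, or matrilysin, had 1 wild type and 4 knockout counts.

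Among the 6 membrane-type and surface-anchored Mmp genes, 3 were higher and 1 lower of 5 tested. Mmp14, which activates pro-Mmp2 at the cell surface, was at 157, 139 and 146 CPM against 413, 662 and 581 CPM. It was the most abundant Mmp of the wild type and its log2 fold change was 1.90 ± 0.26 (edgeR adjusted p = 1.17e-04). Mmp15 (ENSMUSG00000031790, chromosome 8, 95352268 to 95375080, plus strand), a close relative of Mmp14, went the other way: 12.2, 9.78 and 12.0 CPM against 3.45, 1.83 and 2.60 CPM. It was the only Mmp called lower, with no overlap between groups, and fell by 2.10 on the log2 scale, SE 0.32 (edgeR adjusted p = 2.31e-04). Mmp25, a lipid-anchored protease of neutrophils, had 1 count in the 3 wild type libraries and 182 in the knockout, a ratio of 198 with a 95% exact counting interval of 35.2 to 7879. Mmp16 had 0, 0 and 12 counts against 24, 24 and 38. Its edgeR adjusted p of 0.0246 rose to 0.0652 without wild type replicate 1, 0.0694 without wild type replicate 2 and 0.0769 without knockout replicate 3. With wild type replicate 3 left out, which held all its wild type counts, the log2 fold change went from 2.96 to 7.89. Mmp17, lipid-anchored like Mmp25, was at 1.64, 0.367 and 0.902 CPM against 1.76, 2.29 and 2.79 CPM and was not called (log2 fold change 1.22 ± 0.56; edgeR adjusted p = 0.0869), but was without wild type replicate 1 (1.82; edgeR adjusted p = 0.0338). Mmp24 had 25 wild type and 5 knockout counts and was not tested.

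Of the remaining Mmp genes, Mmp19 (ENSMUSG00000025355, chromosome 10, 128790910 to 128800824 in mm10, plus strand) had the highest log2 fold change of all 48 tested members. It was at 0.218, 0.183 and 0.212 CPM in the wild type, from 4, 3 and 4 counts, and at 646, 705 and 1080 CPM in the knockout. Group means were 0.205 ± 0.0186 and 810 ± 236 CPM (SD, n = 3), a log2 fold change of 11.90 ± 0.46 (edgeR adjusted p = 1.65e-07). Of its exon bases, 22.3% overlap Tmem198b on the opposite strand, but that gene had 579 wild type and 520 knockout counts in all. Mmp23, whose protein is anchored by its propeptide, was at 0.818, 0.611 and 0.531 CPM against 10.7, 17.1 and 16.3 CPM (log2 fold change 4.48 ± 0.36; edgeR adjusted p = 2.22e-06). Mmp27 had 3, 0 and 1 counts against 111, 90 and 109, a log2 fold change of 6.27, or 7.47 without wild type replicate 1. Mmp28, or epilysin, which keratinocytes make, was at 1.64, 1.10 and 0.743 CPM against 1.36, 0.784 and 1.98 CPM and was not called, with overlapping groups (log2 fold change 0.25 ± 0.53; edgeR adjusted p = 0.720). Mmp20, known from tooth enamel, and Mmp21 had 6 and 4 wild type counts and 3 and 0 knockout counts.

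**Figure D2:**
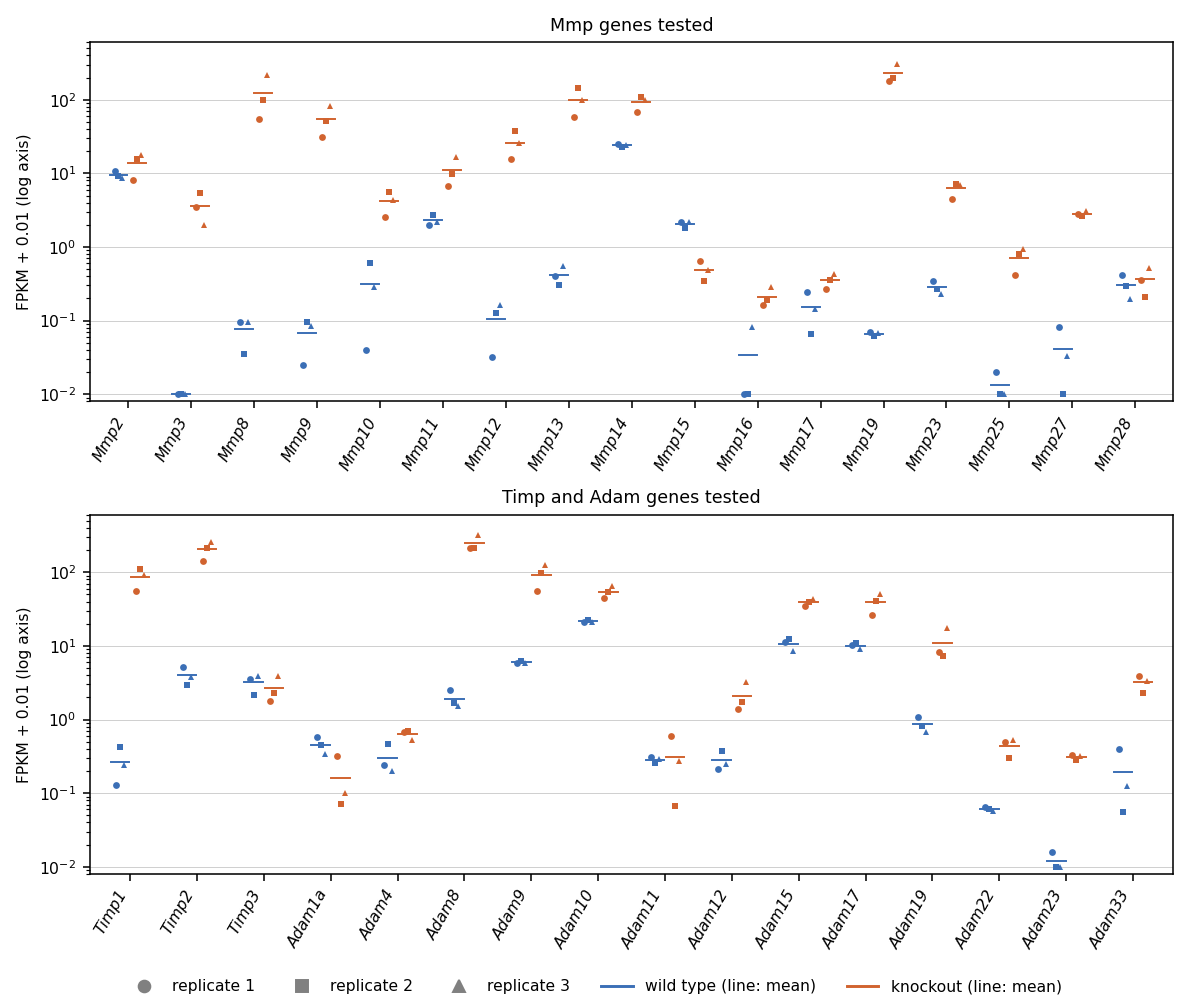
FPKM + 0.01 on a log axis in each of the 6 libraries for the tested Mmp, Timp and Adam genes, with lines at the group means. Mmp8, Mmp9, Mmp12, Mmp13, Mmp19 and Timp1 had wild type means under 1 FPKM and knockout means above 20 FPKM, while Mmp2, Mmp28, Adam11 and Timp3 overlapped between groups.

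Of the 22 Mmp genes, 9 lie in 1 cluster on chromosome 9, from 7272514 to 7699585 in mm10, a stretch of 427 kb with no other protein-coding gene of the table. In genome order they are Mmp13, Mmp12, Mmp1b, Mmp3, Mmp10, Mmp8, Mmp27, Mmp20 and Mmp7. The 6 that could be tested were all higher (28.7% of all genes tested were), and the 3 others were Mmp1b, Mmp20 and Mmp7. Of the 6, only Mmp13 met the count filter in the wild type by itself. The rest met it through the knockout, so their direction is partly built into being tested. Levels were uneven along the cluster: knockout means were 101 FPKM for Mmp13, 26.2 for Mmp12, 3.62 for Mmp3, 4.17 for Mmp10, 123 for Mmp8, 2.84 for Mmp27, 0.0189 for Mmp20 and 0.0753 for Mmp7. At its far end Mmp20 and Mmp7 thus had means under 0.1 FPKM in both groups. Mmp1a, between Mmp3 and Mmp10, is listed as a polymorphic pseudogene and so is no member. It had 0 wild type and 7 knockout counts, and how the counting treated reads that also match the related Mmp1b was not examined. Mmp19, Mmp9 and Mmp14 lie outside the cluster, on chromosomes 10, 2 and 14.

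**Figure D3:**
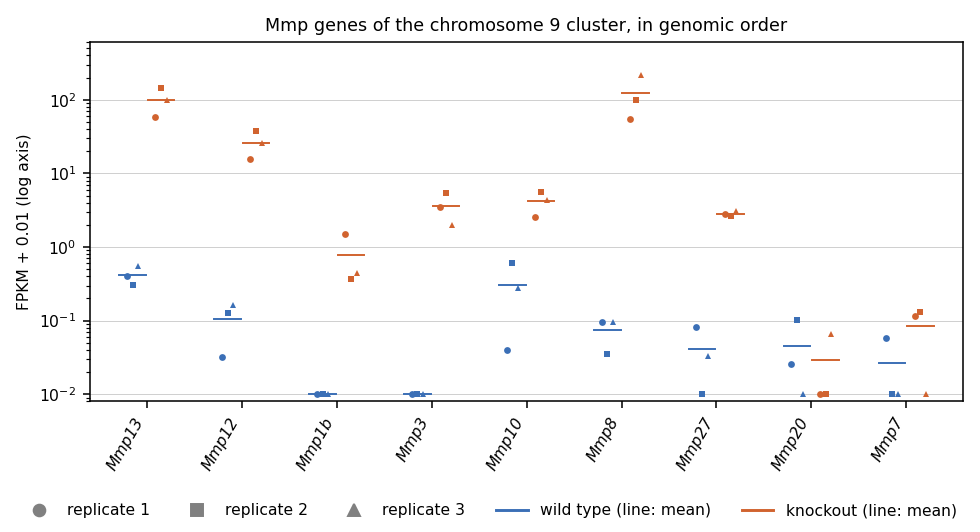
Levels of the chromosome 9 Mmp genes in genome order, as FPKM + 0.01 on a log axis in each library, with lines at the group means. Mmp13, Mmp12 and Mmp8 reach the highest knockout levels, and Mmp20 and Mmp7 have means under 0.1 FPKM in both groups.

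Promoters of 7 of these 9 genes share a short motif. RefSeq promoters on GRCm38.p6, the assembly called mm10, were read as 250 bases before to 50 after each start. They were matched by symbol to 48 of the 78 members. The AP-1 motif TGANTCA, which reads the same on both strands, was found in 7.81% of all 32851 promoters. It was in 35% of the 20 promoters of matched Mmp genes, and in 7 of those 17 genes. These 7 are Mmp1b, Mmp3, Mmp7, Mmp10, Mmp12, Mmp13 and Mmp20, all in the cluster, while the promoters of Mmp8 and Mmp27 do not hold these letters. Mmp2, Mmp9, Mmp16, Mmp17 and Mmp19, all outside the cluster, had no matched promoter, so theirs were not read. AP-1 factors are dimers of Fos and Jun proteins, and the site near the collagenase start is a classic example of their target. Below are the 6 promoters that show this contrast, from 120 bases before to 20 after the start, 5′ to 3′ on the gene's strand, with the motif in capitals.
Mmp13, chr9:7272394-7272533, plus strand: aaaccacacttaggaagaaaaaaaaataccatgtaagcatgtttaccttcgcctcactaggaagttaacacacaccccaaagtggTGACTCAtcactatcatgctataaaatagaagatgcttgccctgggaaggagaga
Mmp12, chr9:7347254-7347393, plus strand: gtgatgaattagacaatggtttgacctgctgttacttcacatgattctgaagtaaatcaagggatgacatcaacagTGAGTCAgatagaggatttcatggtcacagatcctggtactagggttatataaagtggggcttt
Mmp3, chr9:7445702-7445841, plus strand: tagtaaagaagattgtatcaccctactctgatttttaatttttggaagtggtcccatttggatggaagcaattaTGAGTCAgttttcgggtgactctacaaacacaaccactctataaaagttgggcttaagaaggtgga
Mmp10, chr9:7502222-7502361, plus strand: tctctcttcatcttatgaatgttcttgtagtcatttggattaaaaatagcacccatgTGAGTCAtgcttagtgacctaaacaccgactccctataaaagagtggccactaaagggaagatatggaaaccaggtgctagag
Mmp1b, chr9:7388007-7388146, minus strand: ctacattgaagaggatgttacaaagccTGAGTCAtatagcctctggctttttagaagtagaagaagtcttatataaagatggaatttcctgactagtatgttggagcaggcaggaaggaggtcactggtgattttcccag
Mmp8, chr9:7558309-7558448, plus strand: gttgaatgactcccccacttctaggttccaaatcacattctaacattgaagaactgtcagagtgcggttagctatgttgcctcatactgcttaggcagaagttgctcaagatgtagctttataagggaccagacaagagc
The motif begins 35 bases before the start in Mmp13, 44 in Mmp12, 46 in Mmp3, 63 in Mmp10 and 93 in Mmp1b. The Mmp12 promoter is that of the second of 2 RefSeq starts, and the other lacks the motif. Of the cluster's genes, Mmp8 has none and Mmp13 has it, and both were called higher, while Mmp20 and Mmp7 have it and had at most 9 counts over the 6 libraries. Of the 17 matched Adam genes, 5 hold the motif, namely Adam19, Adam1b, Adam20, Adam25 and Adam29, and of these only Adam19 was called. Neither the 10 matched Adamts promoters nor the 4 Timp promoters hold it. The TATA motif TATAAA, sought on both strands, was in 13.6% of all promoters, in 9 of the 20 Mmp promoters and in 1 of 10 Adamts promoters, that of Adamts1. In Mmp8 the match is on the opposite strand only. CpG counts per promoter had a median of 3.5 in Mmp, 23.5 in Adamts and 16 in Timp genes, beside 7 over all promoters. A match is a description of the letters and shows no binding.

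Of the 9 Adam genes that encode proteases of body tissues, 8 could be tested and all 8 were higher, beside 28.7% of all genes tested. Adam33 met the count filter in the knockout but not in the wild type by itself. Adam8 (ENSMUSG00000025473, chromosome 7, 139978932 to 139992562, minus strand), a sheddase of myeloid cells, was at 12.1, 7.82 and 7.27 CPM in the wild type against 1002, 1003 and 1496 CPM in the knockout. In FPKM its knockout mean was the highest of the members, within the spread of Mmp19 and Timp2. It had group means of 9.05 ± 2.62 and 1170 ± 285 CPM (SD, n = 3), a log2 fold change of 7.01 ± 0.39 (edgeR adjusted p = 2.53e-07). Adam9, or meltrin gamma, a sheddase also known from keratinocytes, was nearly level across the wild type at 25.1, 25.8 and 24.9 CPM and stood at 229, 405 and 515 CPM in the knockout. Its log2 fold change was 3.92 ± 0.32 (edgeR adjusted p = 2.75e-06).

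The sheddases of wide expression had smaller log2 fold changes. Adam10, which cuts Notch receptors and E-cadherin, was at 107, 114 and 105 CPM against 219, 264 and 317 CPM, a log2 fold change of 1.30 ± 0.22 (edgeR adjusted p = 5.39e-04). Adam17, which releases Tnf and ligands of the Egf receptor, was at 75.9, 79.9 and 65.8 CPM against 190, 294 and 361 CPM, a log2 fold change of 1.93 ± 0.27 (edgeR adjusted p = 1.24e-04). Adam15, or metargidin, was at 71.8, 76.7 and 53.4 CPM against 217, 248 and 263 CPM, a log2 fold change of 1.85 ± 0.23 (edgeR adjusted p = 5.01e-05), and 20.6% of its exon bases overlap an antisense gene with few counts. In the wild type these 3 stood apart from the rest of the family, at 21.5 ± 1.12 FPKM for Adam10, 10.7 ± 1.95 for Adam15 and 10.1 ± 1.01 for Adam17, the last pair not differing beyond their spread. In the knockout, Adam8 at 251 ± 63.5 and Adam9 at 92.6 ± 35.5 FPKM had passed Adam10 at 54.1 ± 10.4 FPKM.

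Adam12, Adam19 and Adam33, proteases known from mesenchymal cells, were low in the wild type. Adam19, or meltrin beta, was at 7.91, 5.81 and 4.88 CPM against 59.2, 53.0 and 124 CPM (log2 fold change 3.67 ± 0.37; edgeR adjusted p = 1.19e-05). Adam12, or meltrin alpha, was at 2.24, 3.91 and 2.55 CPM against 14.6, 18.2 and 34.4 CPM (log2 fold change 2.95 ± 0.38; edgeR adjusted p = 7.26e-05). Both were highest in knockout replicate 3. Adam33 was at 2.18, 0.245 and 0.637 CPM against 21.2, 12.5 and 18.1 CPM, with wild type replicate 1 the highest of its group and a log2 fold change of 4.06 ± 0.58 (edgeR adjusted p = 1.50e-04), or 5.25 without that library. Adam28, a protease of lymphocytes, had 3, 0 and 1 counts against 29, 2 and 25 and was not tested.

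The 3 Adam genes known from the nervous system, whose proteins lack protease activity, had low counts. Adam22 was at 0.818, 0.734 and 0.690 CPM against 7.02, 4.18 and 7.37 CPM, a log2 fold change of 3.04. Adam23 had 2, 0 and 0 counts against 102, 76 and 88, a ratio of 145 with a 95% exact counting interval of 39.7 to 1203. Adam11 was at 1.75, 1.41 and 1.64 CPM against 3.40, 0.327 and 1.49 CPM and was not called, with knockout libraries on both sides of the wild type (log2 fold change 0.13 ± 0.66; edgeR adjusted p = 0.885).

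Most of the other 21 Adam genes are known from testis, and 19 of them were not tested. Adam1a, the fertilin alpha gene, was the only Adam called lower, at 4.47, 3.30 and 2.49 CPM against 2.32, 0.457 and 0.681 CPM (log2 fold change -1.55 ± 0.59; edgeR adjusted p = 0.0445). Leaving out any library but knockout replicate 1 ended that call, with edgeR adjusted p-values from 0.0658 to 0.148, and without knockout replicate 1 the log2 fold change was -2.56. Of its exon bases, 63.7% overlap Gm42878 and 24.0% Mapkapk5, both on its own strand, so its reads cannot be told apart from theirs there. Adam4 was at 0.600, 1.16 and 0.478 CPM against 1.70, 1.76 and 1.30 CPM and was not called (log2 fold change 1.09 ± 0.52; edgeR adjusted p = 0.0967). Adam3 had 2 wild type and 43 knockout counts, a ratio of 23.4 with a 95% exact counting interval of 6.11 to 199.7.

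Of the procollagen N-propeptidases, which trim the ends of fibrillar procollagens, 1 was higher, 1 lower and 1 not tested. Adamts2 (ENSMUSG00000036545, chromosome 11, 50602084 to 50807573, plus strand) was at 0.382, 0.428 and 0.212 CPM in the wild type against 43.9, 67.6 and 102 CPM in the knockout, a log2 fold change of 7.69 ± 0.44 (edgeR adjusted p = 2.86e-07). Adamts14 (ENSMUSG00000059901, chromosome 10, 61197112 to 61273438, minus strand) was at 130, 65.8 and 61.8 CPM against 17.3, 13.3 and 20.7 CPM, and fell by 2.33 on the log2 scale, SE 0.32 (edgeR adjusted p = 1.15e-04). Wild type replicate 1 was well above the other wild type libraries, and the groups did not overlap. In FPKM the wild type held Adamts14 at 16.0 ± 6.85 and Adamts2 at 0.0356 ± 0.0119, and the knockout Adamts14 at 3.27 ± 0.738 and Adamts2 at 7.59 ± 3.17, so the order of the pair was reversed. Adamts3, the third of this kind, had 2 wild type and 24 knockout counts.

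Of the 7 proteoglycanases, which cut aggrecan and versican, 6 could be tested: 2 were higher, 1 lower and 3 not called. Adamts4 was at 0.491, 0.183 and 0.318 CPM against 16.0, 19.1 and 33.7 CPM (log2 fold change 6.07 ± 0.45; edgeR adjusted p = 1.37e-06). Adamts5 was at 1.91, 0.428 and 0.849 CPM against 34.6, 34.8 and 16.7 CPM (log2 fold change 4.73 ± 0.50; edgeR adjusted p = 1.60e-05), or 5.47 without wild type replicate 1. Unlike Adamts4 it was lowest in knockout replicate 3. Adamts9, a widely expressed member, was at 43.3, 22.6 and 33.2 CPM against 4.13, 3.79 and 4.21 CPM, and fell by 3.03 on the log2 scale, SE 0.29 (edgeR adjusted p = 7.51e-06). Its knockout libraries were nearly equal. Adamts1 had the highest mean FPKM of the family in both groups, though in the wild type within the spread of Adamts14. It was at 108, 70.7 and 92.9 CPM against 102, 83.8 and 71.8 CPM, with overlapping groups and a log2 fold change of -0.08 ± 0.23 (edgeR adjusted p = 0.801). The next protein-coding gene on chromosome 16 is Adamts5, so these neighbours differ in their calls. Adamts20, known from pigment patterning, was at 4.91, 2.02 and 2.65 CPM against 3.45, 2.81 and 3.16 CPM, a log2 fold change of -0.03 ± 0.41 (edgeR adjusted p = 0.965). Adamts15 was not called either (1.00 ± 0.65; edgeR adjusted p = 0.217), and Adamts8 had 1 wild type and 19 knockout counts.

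Adamts7 and Adamts12, whose proteins cut cartilage oligomeric matrix protein, were both higher. Each met the count filter in the knockout but not in the wild type by itself. Adamts7 was at 1.75, 0.245 and 1.43 CPM against 8.89, 10.1 and 13.3 CPM (log2 fold change 3.21 ± 0.52; edgeR adjusted p = 3.83e-04). Adamts12 had 8, 2 and 2 counts against 57, 56 and 77, a log2 fold change of 4.08, or 5.0 without wild type replicate 1.

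Among the other Adamts genes, 3 of 5 tested were lower and none higher. Adamts17 (ENSMUSG00000058145, chromosome 7, 66839735 to 67153171, plus strand), whose protein acts on fibrillin microfibrils, was at 74.5, 30.3 and 63.4 CPM against 3.45, 0.653 and 1.73 CPM. It fell by 4.83 on the log2 scale, SE 0.53 (edgeR adjusted p = 2.30e-05), and fell by 5.52 without knockout replicate 1, the highest of its group. Adamts19 was at 4.42, 2.02 and 2.39 CPM against 0.283, 0 and 0.0619 CPM, from 5, 0 and 1 knockout counts, and fell by 4.53 on the log2 scale, SE 0.79 (edgeR adjusted p = 6.19e-04), or fell by 6.23 without knockout replicate 1. Adamts18 was at 5.73, 2.81 and 4.35 CPM against 1.93, 0.653 and 0.248 CPM (log2 fold change -2.17 ± 0.62; edgeR adjusted p = 0.0128). It was not called without wild type replicate 1 (edgeR adjusted p = 0.0517) and was at -3.23 without knockout replicate 1. Adamts10 was at 58.6, 28.4 and 33.2 CPM against 54.1, 29.8 and 41.3 CPM and was not called, with overlapping groups (log2 fold change 0.06 ± 0.31; edgeR adjusted p = 0.887). Adamts6 was at 3.33, 1.90 and 4.09 CPM against 8.78, 3.99 and 4.52 CPM, and its groups overlapped (0.89 ± 0.42; edgeR adjusted p = 0.0974). Adamts13, which cuts von Willebrand factor, had 26 wild type and 15 knockout counts, and Adamts16 had 8 and 15.

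**Figure D4:**
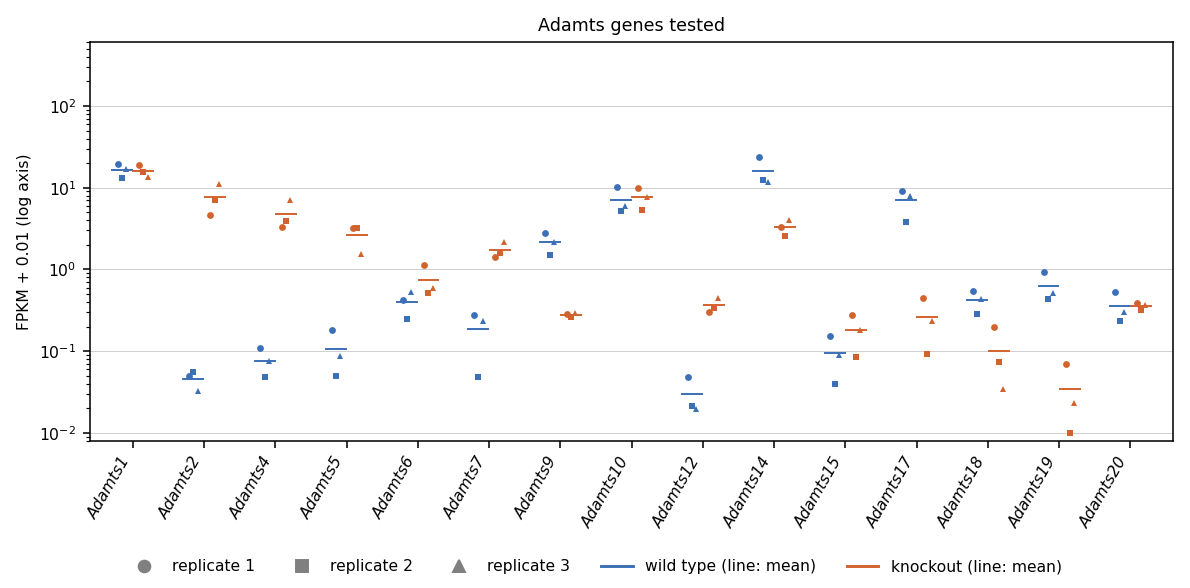
FPKM + 0.01 on a log axis in each of the 6 libraries for the 15 tested Adamts genes, with lines at the group means. Adamts2, Adamts4, Adamts5, Adamts7 and Adamts12 lie higher in the knockout, Adamts9, Adamts14, Adamts17, Adamts18 and Adamts19 lower, and the other 5 overlap.

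Knockout libraries were not alike in how far the 30 called genes rose. Knockout replicate 3 held the highest CPM for 20 of the 30, replicate 2 for 8 and replicate 1 for 2. Replicate 1 held the lowest for 23. The ratio of the highest to the lowest knockout library had a median of 1.95 over these genes and ran from 1.15 for Mmp27 to 3.79 for Mmp8. Marker sums differed between the same libraries. In knockout replicates 1, 2 and 3 the macrophage sum was 11030, 16860 and 20265 CPM, the fibroblast sum 3814, 7578 and 9609 CPM, and the endothelial sum 204, 284 and 368 CPM. The keratinocyte sum was 13619, 13521 and 5490 CPM. The neutrophil sum, at 3435, 8471 and 6274 CPM, was highest in replicate 2, as were Mmp3, Mmp10, Mmp12, Mmp13, Mmp14, Mmp23, Adamts5 and Timp1. The part of these marker levels in the spread of the members was not tested.

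**Figure D5:**
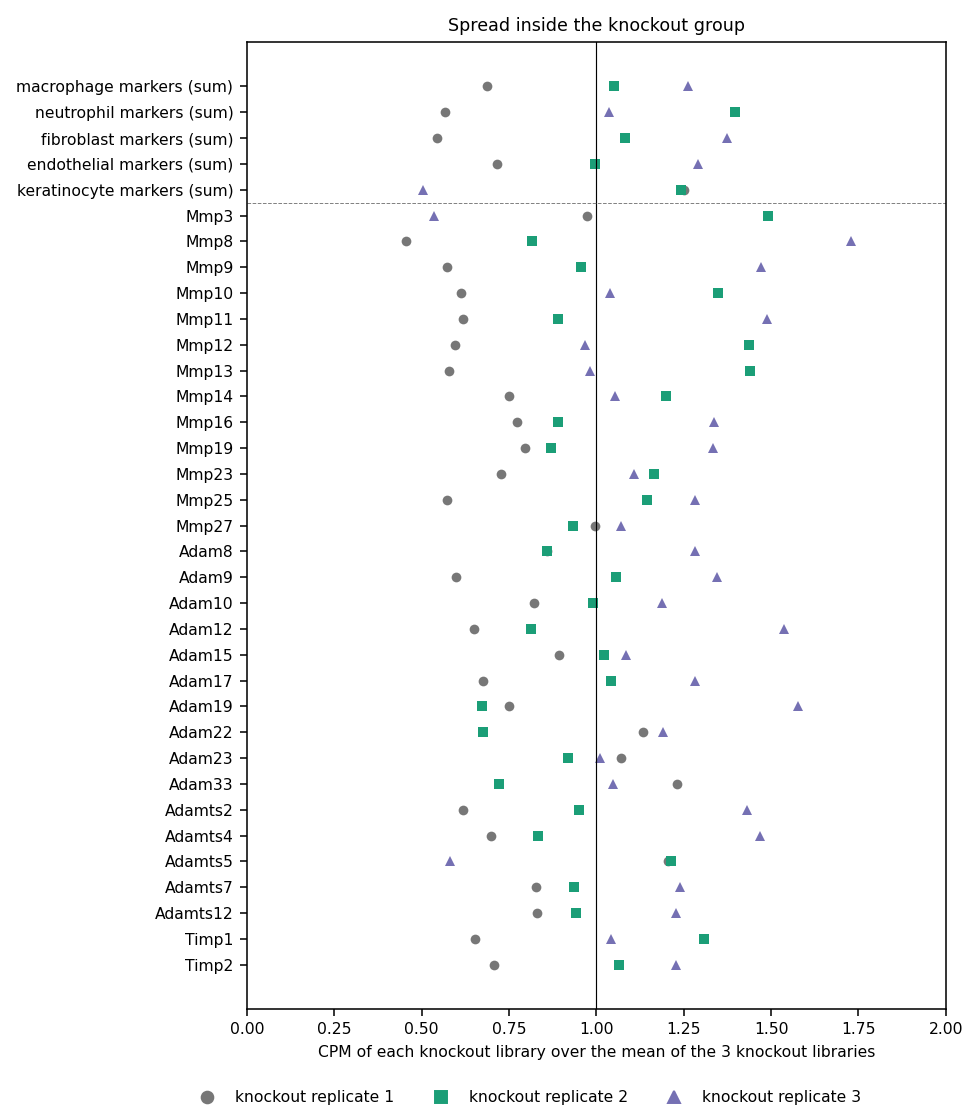
CPM of each knockout library over the mean of the 3, for the summed markers of 5 cell types and the 30 members called higher. Knockout replicate 1 lies lowest for 23 of the 30 members and replicate 3 highest for 20, with Mmp8 the most spread.

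Other genes of these pathways are given by lists, each read beside the shares over all genes tested, 28.7% higher and 25.1% lower. Of 27 genes for the activation and turnover of metalloproteases, 24 were tested, with 16 higher, 6 lower and 2 not called. Plaur, the urokinase receptor, rose by 7.23 ± 0.32 on the log2 scale (edgeR adjusted p = 1.65e-07), and Plat, tissue plasminogen activator, by 3.81 ± 0.36 (edgeR adjusted p = 7.05e-06). Tspan10, a tetraspanin that escorts Adam10, fell by 2.94, SE 0.40 (edgeR adjusted p = 9.91e-05). Further genes of the list, named after their values were seen, include Furin, a convertase that activates proenzymes, at 98.3 CPM in the wild type against 342 CPM in the knockout. The 2 rhomboid partners of Adam17 split: Rhbdf2 rose from 48.4 to 122 CPM and Rhbdf1 fell from 123 to 61.8 CPM. Tetraspanin partners of Adam10 split as well, with Tspan14 and Tspan17 higher, Tspan5, Tspan10 and Tspan15 lower and Tspan33 not called. Reck, a membrane inhibitor of Mmp proteins, rose from 1.57 to 7.34 CPM, and Lrp1, a receptor that clears proteases and their complexes, from 237 to 1593 CPM.

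Of 17 relatives outside the name pattern, 12 were tested, with 3 higher, 4 lower and 5 not called. Tll1, a procollagen C-propeptidase, fell by 4.52, SE 0.41 (edgeR adjusted p = 5.94e-06), and Papln, a matrix protein with Adamts-like domains, by 3.34, SE 0.64 (edgeR adjusted p = 0.00115). Adamtsl4, which lacks the protease domain, rose by 4.90 ± 0.33 on the log2 scale (edgeR adjusted p = 6.99e-07).

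Of 34 proteins known to be released by Adam proteases, 33 were tested, with 23 higher, 6 lower and 4 not called. Tnfrsf1b, a receptor of Tnf, rose by 6.73 ± 0.32 (edgeR adjusted p = 1.78e-07) and Trem2, a receptor of myeloid cells, by 5.86 ± 0.32 (edgeR adjusted p = 2.25e-07) on the log2 scale. Cx3cl1, a membrane-bound chemokine, fell by 3.55, SE 0.36 (edgeR adjusted p = 1.35e-05). Named after their values were seen, the Egf receptor ligands Hbegf, Areg, Ereg, Epgn and Tgfa were higher, while Btc was lower, at 64.0 against 5.68 CPM, and Egf was not called. Tnf, the substrate that gave Adam17 its other name, went from 0.629 to 19.6 CPM.

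Of 28 matrix substrates, 26 were tested, with 16 higher, 7 lower and 3 not called. Spp1, or osteopontin, had 2 counts over the wild type libraries and 139700 over the knockout, and Fbn1, or fibrillin-1, rose by 6.50 ± 0.51 on the log2 scale (edgeR adjusted p = 2.08e-06). Lamb3, a chain of the epidermal laminin, fell by 3.09, SE 0.32 (edgeR adjusted p = 1.54e-05). Named after their values were seen, the basement membrane genes Col7a1, Col17a1, Lama3, Lama5 and Hspg2 were lower, Nid1 and Nid2 were higher, and Col4a1 and Col4a2 were not called (log2 fold changes of -0.08 and 0.13). Medians over the tested genes of the 4 lists were 1.28, -0.18, 1.55 and 2.09 on the log2 scale, in the order given here. The lists were drawn up with earlier results of these data known, and the marker levels given at the start differ between the same groups. Lists and markers share genes. Col1a1, Col1a2, Col3a1, Dcn and Col17a1 are matrix substrates and also markers, and Csf1r, Mertk and Cdh1 are released proteins and also markers.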

How the data were processed

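The authors deposited read counts per gene and FPKM values for 54532 genes in the 6 libraries. Per the submitters' processing notes, HISAT2 2.0.5, featureCounts 1.5.0-p3 and mm10 were used. No source used here gives the strand setting, the parameters or the annotation release, so reads of overlapping genes cannot be told apart. The deposited FPKM equal the counts over gene length and 1 constant per library.

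Groups came from the genotype label. Counts were fitted with edgeR 4.0.16 in R 4.3.3 (TMM factors, filterByExpr with a minimum count of 10 and a minimum total of 15, robust quasi-likelihood test, genotype as the only term), and p-values were adjusted by Benjamini-Hochberg over the 16471 genes tested, which held at least 99.7% of each library's counts. The fit was checked on simulated counts. CPM use the TMM-scaled library size, and FPKM are as deposited. The SE was taken from the log2 fold change (its size) and the square root of the test's F. Floors are 3 counts over a group, and exact intervals are at 95%. These cover counting error only. Libraries of a group differed well beyond sampling noise (chi-square per degree of freedom of 29.8 to 80.5), and none was treated as a duplicate.

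Members and lists were chosen with earlier results of these data known. Values in every library are given for all Timp genes and, in each other family, for the 8 called genes with the highest group mean FPKM, up to 4 called against the family's majority (the higher direction where tied) and up to 4 not called with the highest FPKM. Of each other list, the cell markers aside, the 2 members of lowest adjusted p that moved with most of the list are named. So is 1 that moved against it. Further genes were chosen after their values were seen. A list member is counted but not reported by name here. Exon overlaps come from GENCODE M21, whose coordinates equal the table's for 77 of 78 members. They were sought with genes outside the families only, so exon overlaps between members were not examined. Promoters come from RefSeq.

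Deviations from the group means over genes correlated at 0.29, 0.45 and 0.21 between libraries with the same replicate number, and at -0.43 to 0.10 between others. The numbers were therefore taken to pair the libraries, but only in the replicate block, an alternative fit. The main fit, with genotype as its only term, ignores this pairing, and so do its p-values. This pairing comes from the data, since what a number marks is not in the labels. Alternatives were other scalings and filters, DESeq2 1.42.0, limma-voom and limma-trend on FPKM with pseudocounts of 1 and 0.1 (limma 3.58.1), no robust estimation, a replicate block, protein-coding genes only, each library left out, and, added after seeing the data, both libraries numbered 1 left out.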

Additional observations from a re-analysis of the deposited data

How the results depend on the processing

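Of the 37 members called, 37 kept their call and direction with RLE or upper-quartile scaling, no filter, DESeq2, limma-voom, no robust estimation, the replicate block, limma-trend on FPKM with either pseudocount, and without knockout replicate 1. The replicate block changed no call of any member: 13 Mmp genes were higher under it, and 5 Adamts genes were higher and 5 lower. In the other settings 34 to 36 kept their call, and none changed direction. The number of Adam genes called lower went from 1 to 0 with library-size scaling, with a filter of 1 CPM in 3 libraries and with protein-coding genes only, and ranged from 0 to 1 when 1 library was left out. This count is Adam1a, whose edgeR adjusted p was 0.0615, 0.0566 and 0.0518 in those 3 settings. Mmp16 was not called with both libraries numbered 1 left out (edgeR adjusted p = 0.0570), while Mmp2 was (0.88; edgeR adjusted p = 0.0118), as was Mmp17 (1.96; edgeR adjusted p = 0.0241). Mmp17 was also called by limma-voom (adjusted p = 0.0499) and limma-trend on log2(FPKM + 0.1) (adjusted p = 0.0471), and Adam4 by limma-trend with either pseudocount (adjusted p = 0.0307 and 0.0392). The cause was not tested.

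Of 722 values of the named genes, 706 stayed on the same side of the threshold. For 5 genes not called in any of the settings concerned, Mmp28, Adam11, Adamts1, Adamts10 and Adamts20, 23 values changed sign. Leaving out 1 library moved the fold of 13 of the 37 by over 1.5 times, as given beside each except Adam23 (log2 fold change 6.92, or 9.51 without wild type replicate 1) and Mmp25 (7.18, or 8.98 without wild type replicate 1). Upper-quartile and library-size scaling shifted the median log2 fold change of all genes to -0.22 and -0.18. Depth limits the members with few counts: 20 of the 30 untested had 1 to 60 counts in all.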
